A study of Mus with 9 samples.

Results

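The organic anion, cation and carboxylate transporters were taken as the protein-coding genes whose symbol began with Slc22a, Slco, Slc47a, Slc17a, Slc10a, Slc13a, Slc15a or Slc16a, which gave 81 of the 54532 genes in the table and 81 of its 22046 protein-coding genes. Of these, 64 had enough counts to be tested, 17 did not, and 6 of the 17 had no count in any library. Kidney RNA was sequenced from C57BL/6 mice, male by the study's methods, that had all undergone unilateral nephrectomy at 18 months of age. The 18 mo group (n = 3 libraries) was killed 1 week after surgery and received no injections. The 21 mo group (n = 3) received daily intraperitoneal saline for 12 weeks after surgery, and the 21 mo/O304 group (n = 3) received O304, a small-molecule activator of the energy sensor AMPK, at 10 mg/kg/day over the same 12 weeks. Age, time since surgery and injections therefore all differ between the 18 mo group and the other two, and their parts cannot be told apart, whereas 21 mo/O304 and 21 mo differ by the compound. The sources used here do not say whether the 3 libraries of a group came from separate mice, so p-values measure the spread between libraries, which may be partly technical.

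Epithelial cells of the proximal tubule clear the blood of drugs, toxins and metabolic waste that are bound to albumin and so escape filtration. Uptake on the blood side is carried out mainly by organic anion transporters of the SLC22 family, which exchange their substrate for a dicarboxylate that SLC13 carriers keep concentrated in the cell, and by the organic cation transporters, which are driven by the membrane voltage. Efflux into the urine uses apical carriers such as the SLC47 antiporters for cations and SLC17 carriers for urate and other anions, and the remaining families carry prostaglandins and thyroid hormone (SLCO), bile acids (SLC10), small peptides (SLC15), and lactate and other monocarboxylates (SLC16).

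Each library held between 15636378 and 18396725 counts assigned to genes, so that 1 count was worth 0.0458 to 0.0669 CPM, which is a count scaled to the library's total after TMM normalization, a correction for composition. Markers of the proximal tubule were abundant in all 9 libraries, but the 21 mo libraries differed from each other. The summed level of 14 proximal tubule markers was 18384, 8682 and 2685 CPM in 21 mo replicates 1, 2 and 3, against 18331 to 22559 CPM at 18 mo and 19031 to 22755 CPM with O304. Summed over 6 tubule injury markers, such as Havcr1 and Lcn2, the levels were 1553, 13937 and 16554 CPM in the 3 saline libraries and between 916 and 1431 CPM in the 6 others. Macrophage markers summed to 684, 1086 and 3319 CPM in the 21 mo libraries against 267 to 533 CPM elsewhere, and fibroblast markers to 139, 570 and 1373 CPM against 115 to 277 CPM. Between 21 mo and 18 mo, 12 of the 14 proximal tubule markers had a lower fitted level, and all 6 markers of each of the other 3 lists a higher one. Adipocyte markers summed to 106 to 202 CPM with O304 against 31.7 to 129 CPM elsewhere, with Adipoq at 0 in 3 of the libraries without O304. Every marker of the first 4 lists had counts in every library, 0 markers passed the test in any comparison, and their part in the results below was not tested. Because 21 mo replicate 1 lay apart from replicates 2 and 3, counts of called transporters and their medians are given with and without it. In the paragraphs on single genes, values without it are given only where they passed an adjusted p of 0.05. That choice was made after the data were seen. Slc22a8, Slc22a30, Slc13a3 and Slco1a6, among others, passed in neither comparison without it. Slc16a3, Slc17a1, Slc17a3 and Slc22a28 did not pass against 18 mo without it. In proximal tubule and tubule injury sums, 21 mo replicate 1 was the saline library nearest to 18 mo, so leaving it out tends to widen differences. In edgeR 25.4% of all genes then passed an adjusted p of 0.05 for 21 mo against 18 mo, and 23.1% for O304 against saline. Such calls describe how the results depend on 1 library.

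Levels of different genes were compared in FPKM, which scales fragments by transcript length and library depth. The most abundant transporter was the urate carrier Slc22a12, with a mean of 533 FPKM over the 9 libraries. Among the next in level were Slc22a18 with 266 FPKM, the organic anion transporter Slc22a6 with 261 FPKM and the anion carrier Slc17a1 with 213 FPKM. Slc47a1 had a mean level of 177 FPKM, Slc13a3 of 149 FPKM, Slc22a8 of 147 FPKM, Slc22a2 of 118 FPKM and Slc17a3 of 86.0 FPKM. Carriers of the proximal tubule membranes thus filled the upper end of the list. All members together took 1.03%, 1.30% and 1.13% of the counts in the 18 mo libraries and 1.02%, 0.724% and 0.284% in the 21 mo libraries. In the 21 mo/O304 libraries the share was 1.09%, 1.14% and 1.26%, which lay inside the range of the 18 mo group.

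The comparison of 21 mo with 18 mo asked how the ageing, injected kidney differed from the kidney shortly after surgery. Carriers of organic anions, urate and organic cations were mostly lower at 21 mo, by a median log2 fold change of -0.82 over 22 tested Slc22a genes, and so was the cation efflux carrier Slc47a1. The largest difference was that of Slco1a1, and a minority, including the prostaglandin transporter Slco2a1 and the lactate exporter Slc16a3, was higher. In all, 44 of 64 transporters had a lower fitted level and 20 a higher one, where 47.3% of all 15902 tested genes were lower and 52.7% higher. The median log2 fold change was -0.44, against 0.03 for all genes. No transporter passed an adjusted p of 0.05 in edgeR's quasi-likelihood test (0 of 64), which called 0.0189% of all genes, 3 in number. At an unadjusted p under 0.05 there were 16 transporters, 6 higher and 10 lower, against a background of 26.1%, 14% higher and 12% lower. The 3 libraries of each group did not overlap for 18 transporters, 3 higher and 15 lower, where 28.8% of all genes did not overlap, 13.5% higher and 15.3% lower. That share, 28.1% of the 64, was near the background. In bulk tissue, fewer cells of a type and less RNA per cell cannot be told apart.

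The call depended on the library and the tool. With 21 mo replicate 1 left out, edgeR called 22 transporters, 3 higher and 19 lower, among 25.4% of all genes, and the median became -1.06. Without 21 mo replicate 3 it called 1, Slc16a11, and the median moved the other way to -0.19. Without any of the other 7 libraries it called 0. DESeq2 called 6, all lower (Slc10a1, Slc13a5, Slc16a11, Slc22a17, Slco1a1 and Slco3a1), among 7.31% of its genes. On the same libraries limma voom with library quality weights called 40, 9 higher and 31 lower, among 52.9%.

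O304 was then compared with saline at 21 mo, which addresses whether the activator altered the aged kidney. Most Slc22a, Slc13a and Slc17a genes had a higher fitted level with O304, the median log2 fold changes being 0.74 over 22 Slc22a genes, 0.77 over 5 Slc13a genes and 0.45 over 5 Slc17a genes. Slco2a1, Slco4a1, Slc16a3 and the lysosomal peptide carrier Slc15a3 were lower. Both comparisons share the 21 mo libraries, so opposite signs in them are not independent. In total 47 transporters were higher and 17 lower, where 48.2% of all genes were higher and 51.8% lower. The median over the 64 was 0.48, against -0.02 for all genes. The quasi-likelihood test in edgeR called 0 of 64 transporters and 0% of all genes. An unadjusted p under 0.05 was found for 16, 11 higher and 5 lower, against a background of 20.7%, 8.27% higher and 12.4% lower. The groups did not overlap for 25 of the 64, 20 higher and 5 lower, against 21.3% of all genes, 10.8% higher and 10.5% lower. With 21 mo replicate 1 left out, edgeR called 29, 24 higher and 5 lower, among 23.1% of all genes, and the median was 1.16. With any other library left out it called 0, and without 21 mo replicate 3 the median was 0.26. DESeq2 called 5 (Slco1a1 and Slco3a1 higher, Slc16a3, Slco2a1 and Slco4a1 lower) among 3.36% of its genes, and limma voom with quality weights 37, 34 higher and 3 lower, among 41.1%.

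**Figure D1:**
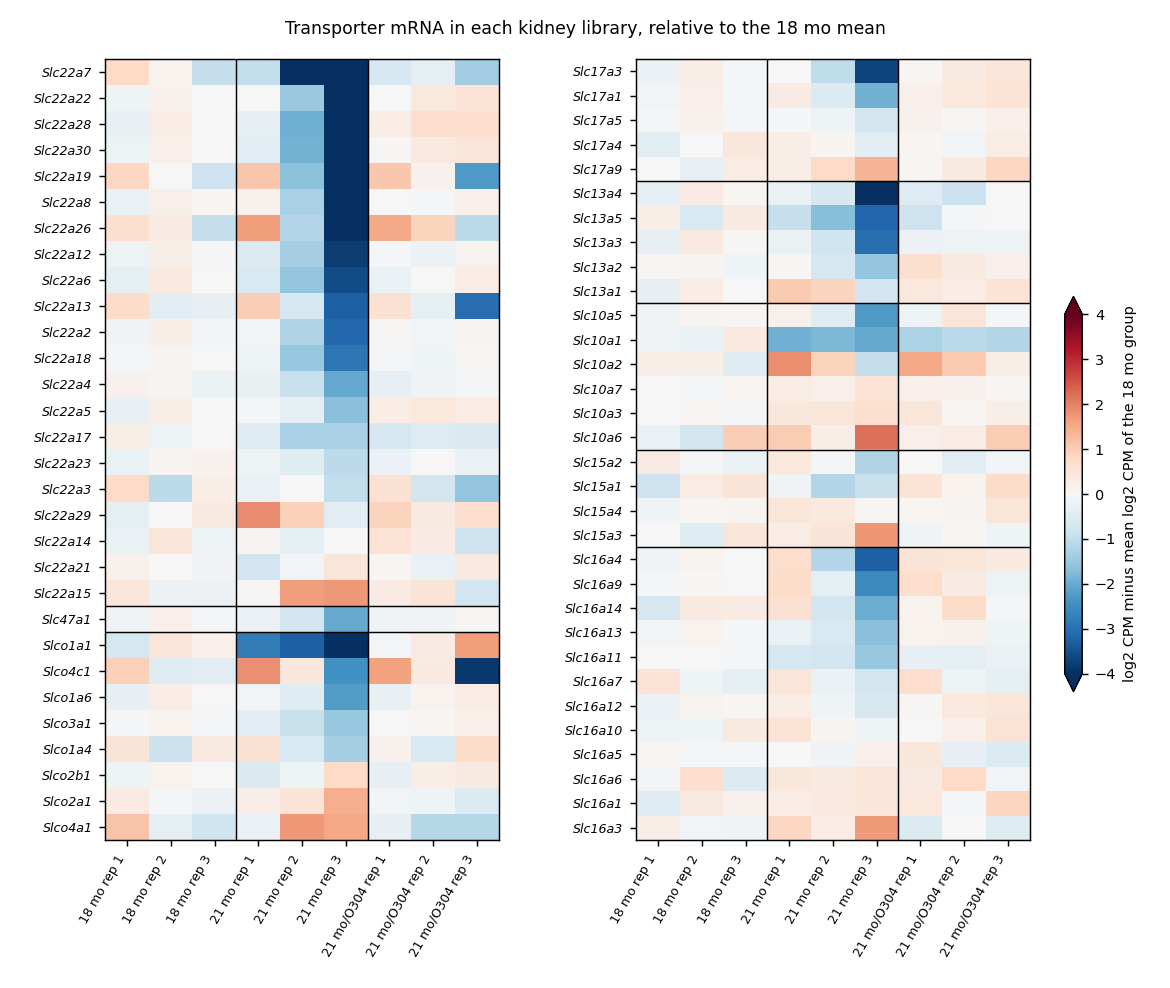
Log2 CPM of 62 of the 64 tested transporters (rows, grouped by gene family) in each of the 9 libraries (columns), minus the mean log2 CPM of the 18 mo group, with colours held at -4 and 4. The darkest blue cells lie in 21 mo replicate 3, where the median over the transporters was -1.53, while 21 mo replicate 1 had a median of 0.03 and the 3 O304 libraries had medians of 0.07, 0.07 and 0.12.

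Taken library by library, 21 mo replicate 1 was below the whole 18 mo range for 17 of the 64 transporters, replicate 2 for 40 and replicate 3 for 45, against 33.4%, 36.1% and 40.5% of all genes. The median level relative to the 18 mo mean was 0.03, -0.52 and -1.53 on the log2 scale in these 3 libraries. Replicate 3 was the lowest of its group for 47 transporters (73.4%, against 40.0% of all genes) and replicate 1 the highest for 48 (75%, against 37.9%). As a result the 21 mo group had the widest spread of the 3 groups for 54 transporters (84.4%, against 65.4% of all genes). The median range within a group, as a log2 difference between its highest and lowest library, was 0.56 at 18 mo, 1.78 at 21 mo and 0.48 with O304. Over all tested genes it was 0.34, 0.71 and 0.37, so the 21 mo group was the widest there too. The saline libraries were above the 18 mo range for 21, 13 and 13 transporters, against 31.1%, 37.3% and 41.3% of all genes. The O304 libraries were below that range for 9, 10 and 18 transporters (30.4%, 32.5% and 31.3% of all genes) and above it for 17, 24 and 26 (30.0%, 32.3% and 31.7%).

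Organic anion uptake on the blood side is led by Slc22a6 and Slc22a8, neighbours on chromosome 19 (8617996 to 8628299 and 8591254 to 8611834, GRCm38/mm10, as are all positions here). Slc22a6 (OAT1) was at 1026, 1779.7 and 1344 CPM in the 18 mo libraries, 890.5, 453 and 112 CPM in the 21 mo libraries and 1125, 1359 and 1654 CPM in the 21 mo/O304 libraries; the values here and below are in the order of replicates 1, 2 and 3. All 3 saline libraries lay below every other library. Log2 fold changes are given ± SE of the fit, which shares 1 estimate of spread per gene over all 9 libraries. That of Slc22a6 was -1.51 ± 0.61 (edgeR adjusted p = 0.160) against 18 mo and 1.51 ± 0.61 (adjusted p = 0.217) for O304 against saline. For such separated groups of 3 the two-sided exact permutation test gives p = 0.1, the smallest it allows. The fold changes of this gene became -2.28 on the log2 scale (adjusted p = 0.0217) and 2.28 (adjusted p = 0.0241) without 21 mo replicate 1.

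Slc22a8 (OAT3) shares many substrates with Slc22a6 but was distributed otherwise, with 518, 709.7 and 647 CPM at 18 mo, 694, 254 and 19.6 CPM at 21 mo and 619, 586 and 706 CPM with O304. The first 21 mo library lay inside the 18 mo range and the third far below it. The groups overlapped in both comparisons (log2 fold change -0.95 ± 0.86, adjusted p = 0.497, and 0.98 ± 0.86, adjusted p = 0.509). Slc22a7 (OAT2), at 46432183 to 46438457 on chromosome 17, carries glutamate, nucleotides and some drugs. It was at 193, 124 and 57.5 CPM at 18 mo, 55.7, 3.69 and 0.321 CPM at 21 mo and 69.3, 84.7 and 42.0 CPM with O304. The lowest value stood for 7 counts. All saline libraries were below all 18 mo libraries, but the highest of them overlapped the O304 group. Its log2 fold changes of -2.66 ± 1.25 (adjusted p = 0.214) and 1.73 ± 1.21 (adjusted p = 0.411) became -6.00 (adjusted p = 0.00562) and 5.07 (adjusted p = 0.00991) without 21 mo replicate 1.

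Slc22a12 (URAT1), at 6535845 to 6543019 on chromosome 19, is the apical exchanger that takes urate back from the urine. It had 1377, 1857 and 1522 CPM at 18 mo, 1085, 633 and 113 CPM at 21 mo and 1486, 1330.0 and 1720.3 CPM with O304, so the saline libraries lay below all others. Its log2 fold change was -1.38 ± 0.62 (adjusted p = 0.201) against 18 mo and 1.31 ± 0.62 (adjusted p = 0.263) for O304. These became -2.07 (adjusted p = 0.0396) and 2.01 (adjusted p = 0.0456) without 21 mo replicate 1. The gene overlaps Nrxn2 on the other strand, and the sources used here do not say whether strand was used in counting.

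A cluster of rodent organic anion transporters, Slc22a19 and Slc22a26 to Slc22a30, lies between 7673061 and 8405111 on chromosome 19. Its members resemble each other, so reads may have been split between them. Slc22a30 was at 133, 173 and 149.8 CPM in the 18 mo libraries, 109.7, 40.2 and 1.33 CPM with saline and 156, 198 and 210.4 CPM with O304, and the lowest library held 29 counts. Its log2 fold changes were -1.59 ± 0.98 (adjusted p = 0.322) and 1.90 ± 0.99 (adjusted p = 0.292), with the saline libraries below all others. Slc22a28 had the same order of groups, at 97.9, 149 and 122, then 96.7, 31.3 and 0.962, then 148, 197 and 195 CPM, and passed for O304 against saline without 21 mo replicate 1, at 3.48 (adjusted p = 0.0419, against 2.07 with adjusted p = 0.274 in all libraries). The scarce Slc22a29 went the other way in 21 mo replicates 1 and 2, at 0.681, 0.924 and 1.19 CPM at 18 mo, 3.68, 1.88 and 0.641 CPM at 21 mo and 1.80, 1.19 and 1.53 CPM with O304, with overlap in both comparisons. Slc22a19 and Slc22a26 differed most between replicates. Slc22a19 was at 76.5, 43.1 and 24.4 CPM at 18 mo, 93.2, 13.6 and 0.779 CPM at 21 mo and 90.8, 48.3 and 8.85 CPM with O304, and replicate 3 was the lowest in each group. Outside the cluster, the prostaglandin carrier Slc22a22 stood at 101, 35.9 and 0.412 CPM in the 21 mo libraries, against 88.2 to 112 CPM at 18 mo, and the apical urate and nicotinate carrier Slc22a13 at 116, 36.1 and 5.96 CPM with saline and 90.8, 45.1 and 7.07 CPM with O304.

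Slc22a2 (OCT2), at 12584132 to 12628488 on chromosome 17, lets organic cations into the proximal tubule cell, and they leave it through the apical proton antiporter Slc47a1 (MATE1). Slc22a2 was at 332, 424 and 339.5 CPM at 18 mo, 333, 157 and 40.6 CPM with saline and 373, 335 and 394 CPM with O304. The saline libraries lay below all O304 libraries but not below all 18 mo ones. On the log2 scale it differed by -1.05 ± 0.57 (adjusted p = 0.271) and 1.06 ± 0.57 (adjusted p = 0.306). The differences became -1.87 (adjusted p = 0.0248) and 1.89 (adjusted p = 0.0268) without 21 mo replicate 1.

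Slc47a1, at 61343401 to 61378345 on chromosome 11, was at 665, 843 and 712 CPM at 18 mo, 632, 435 and 183 CPM at 21 mo and 666, 669.9 and 762 CPM with O304. The saline libraries lay below all 6 others, by a narrow margin for replicate 1. Its log2 fold change was -0.83 ± 0.38 (adjusted p = 0.202) and, for O304, 0.75 ± 0.38 (adjusted p = 0.282). Leaving out 21 mo replicate 1 gave -1.24 (adjusted p = 0.0297) and 1.17 (adjusted p = 0.0390). The ergothioneine carrier Slc22a4 (OCTN1) was at 58.6, 55.3 and 42.8, then 42.1, 28.1 and 12.5, then 41.6, 46.7 and 49.3 CPM in the 3 groups, with saline below 18 mo in every library. Its log2 fold changes were -0.93 (adjusted p = 0.148) and 0.74 (adjusted p = 0.265). Slc22a5 (OCTN2), which recovers the carnitine that fatty acid oxidation needs, was at 212, 314 and 265 CPM at 18 mo, 254, 199 and 82.2 CPM at 21 mo and 322, 347 and 320.2 CPM with O304. Every O304 library was above every saline and every 18 mo library. The differences were 0.88 ± 0.35 (adjusted p = 0.215) over saline and 0.32 ± 0.35 (adjusted p = 0.816) over 18 mo. Leaving out 21 mo replicate 1, Slc22a4 reached -1.35 (adjusted p = 0.0174) and 1.17 (adjusted p = 0.0297), and Slc22a5 1.22 (adjusted p = 0.0373) for O304.

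Among the less characterized Slc22 genes, Slc22a17 encodes a receptor for lipocalin 2 and had a small spread within groups. It was at 40.9, 29.8 and 34.1 CPM at 18 mo, 24.8, 14.1 and 14.1 CPM at 21 mo and 21.9, 24.0 and 23.4 CPM with O304, and both the saline and the O304 libraries were below the 18 mo libraries. The log2 fold change was -0.99 ± 0.23 (adjusted p = 0.0697) for 21 mo and -0.60 ± 0.23 (adjusted p = 0.460) for 21 mo/O304 against 18 mo. For O304 against saline it was 0.39 ± 0.23 (adjusted p = 0.335), with overlap. With 21 mo replicate 1 left out, the first was -1.29 (adjusted p = 0.00340) and the last 0.70 (adjusted p = 0.0177). Slc22a18, an imprinted gene, was at 542, 621 and 569, then 508, 204 and 77.2, then 561, 508 and 596 CPM in the 3 groups, with saline below both others, by a narrow margin for replicate 1. On the log2 scale it differed by -1.14 (adjusted p = 0.213) and 1.08 (adjusted p = 0.274). It passed in both comparisons without 21 mo replicate 1, at -2.02 (adjusted p = 0.00876) and 1.97 (adjusted p = 0.0114). Slc22a23 was at 92.5, 120.4 and 124 CPM at 18 mo and 95.9, 79.7 and 53.7 CPM at 21 mo (log2 fold change -0.56, adjusted p = 0.146, or -0.74 with adjusted p = 0.0314 without that library). Slc22a15 was instead higher in 21 mo replicates 2 and 3, at 3.28, 1.97 and 1.98 CPM at 18 mo and 2.41, 7.79 and 8.11 CPM at 21 mo (log2 fold change 1.34, adjusted p = 0.148, or 1.74 with adjusted p = 0.0191 without replicate 1).

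The organic anion transporting polypeptides encoded by Slco genes held the largest fitted difference of the 64. Slco1a1, at 141907282 to 141946962 on chromosome 6, encodes an apical carrier of steroid conjugates and other amphipathic anions that is high in the male mouse kidney. It was at 152, 345 and 285 CPM in the 18 mo libraries, 35.4, 25.4 and 1.60 CPM in the 21 mo libraries and 239, 307 and 786 CPM in the 21 mo/O304 libraries. The 3 saline libraries were at 13.6%, 9.75% and 0.615% of the 18 mo mean, below all 6 others, and for this gene replicate 1 kept to its own group. The log2 fold change was -3.65 ± 0.94 (adjusted p = 0.0792) against 18 mo and 4.42 ± 0.98 (adjusted p = 0.175) for O304. Leaving out 21 mo replicate 1 gave -4.26 (adjusted p = 0.0246) and 5.03 (adjusted p = 0.0189). DESeq2 on all libraries gave -3.65 (adjusted p = 0.00545) and 4.42 (adjusted p = 0.00121).

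Slco3a1, a widely expressed carrier of prostaglandins and thyroxine, was at 241, 279 and 239 CPM at 18 mo, 185, 137 and 88.3 CPM at 21 mo and 257, 265 and 288 CPM with O304, again with all saline libraries below the 6 others. Its log2 fold changes were -0.89 ± 0.24 (adjusted p = 0.0844) and 0.98 ± 0.24 (adjusted p = 0.175). They became -1.15 (adjusted p = 0.00784) and 1.25 (adjusted p = 0.00816) without 21 mo replicate 1. Slco1a6, next to Slco1a1 in the same cluster, overlapped in both comparisons (206, 322 and 265, then 241, 184 and 54.9, then 212, 288 and 320.2 CPM, log2 fold change -0.73 and 0.77). The basolateral digoxin and uraemic toxin carrier Slco4c1 was at 44.0, 15.8 and 17.0 CPM at 18 mo, 81.3, 31.2 and 4.17 CPM at 21 mo and 70.2, 29.6 and 1.46 CPM with O304, a spread within each group that exceeded any difference between groups. Slco1a4 stayed between 0.687 and 3.18 CPM in all libraries.

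A pair of Slco genes was higher with saline. Slco2a1, which takes up prostaglandins for degradation, was at 37.0, 28.0 and 25.0 CPM at 18 mo, 35.8, 42.5 and 81.3 CPM at 21 mo and 27.6, 26.0 and 20.2 CPM with O304. The saline libraries were above all O304 libraries. Log2 fold changes were 0.83 ± 0.30 (adjusted p = 0.133) against 18 mo and -1.11 ± 0.30 (adjusted p = 0.175) for O304, and became 1.06 (adjusted p = 0.0274) and -1.34 (adjusted p = 0.0159) without 21 mo replicate 1. Slco4a1, a thyroid hormone and prostaglandin carrier, was at 17.4, 6.04 and 4.47 CPM, 6.56, 26.4 and 23.0 CPM and 6.16, 3.46 and 3.50 CPM in the same order of groups. The 18 mo group overlapped both others. All O304 libraries were below all saline libraries (log2 fold change -2.09 ± 0.63, adjusted p = 0.176, or -2.50 with adjusted p = 0.0169 without 21 mo replicate 1).

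**Figure D2:**
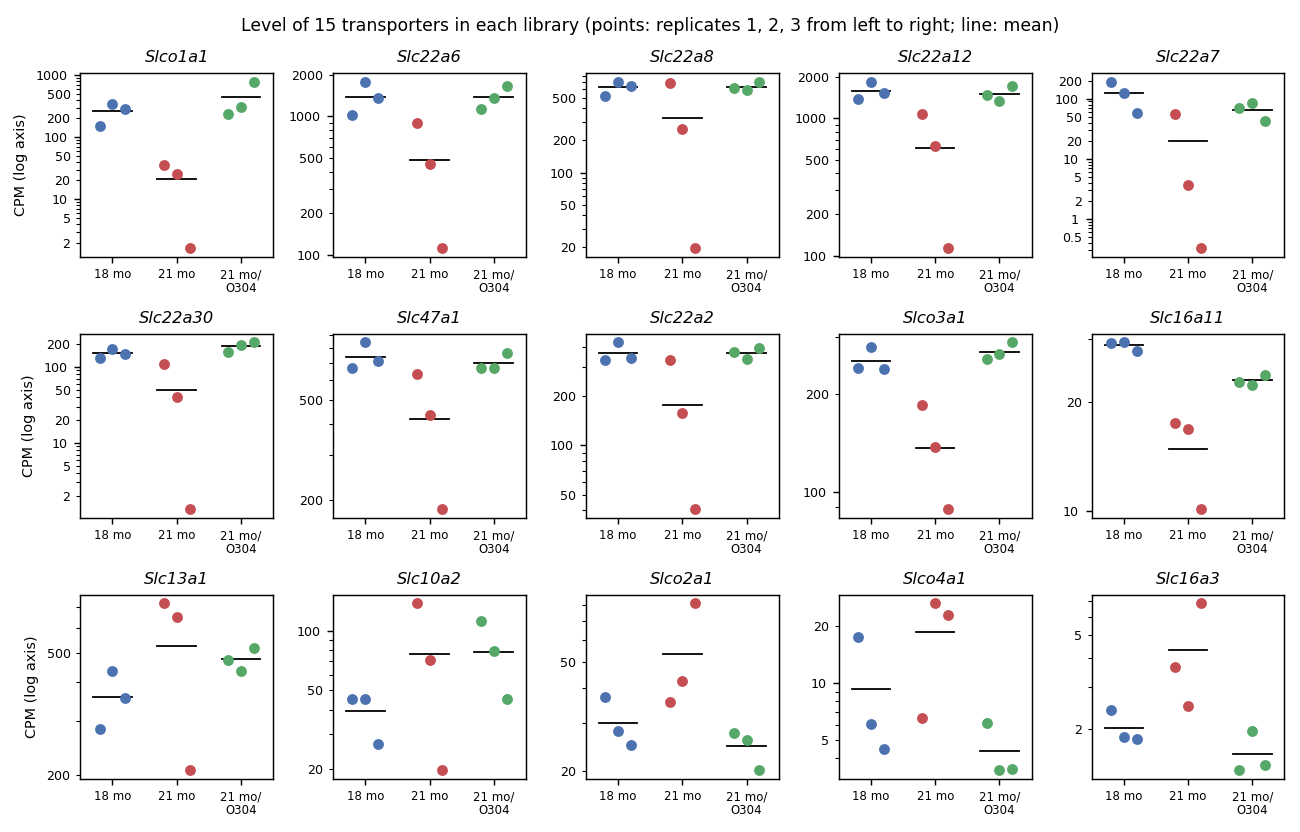
CPM (log axis) of 15 transporters in each library, with 1 point per library and a line at the mean of each group of 3. In the first 10 panels the lowest points are saline libraries, down to 1.60 CPM for Slco1a1 and 0.321 CPM for Slc22a7, while for Slco2a1, Slco4a1 and Slc16a3 the saline libraries hold the highest points.

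Urate and anion exit into the urine uses Slc17a1 (NPT1) and Slc17a3 (NPT4), which lie together on chromosome 13. Slc17a1 was at 472, 590.4 and 481 CPM at 18 mo, 645, 351 and 136 CPM at 21 mo and 588, 689 and 745 CPM with O304, with overlap in both comparisons. On the log2 scale it differed by -0.45 (adjusted p = 0.542) and 0.84 (adjusted p = 0.305). Slc17a3 was at 551, 787 and 627 CPM in the 18 mo libraries, 634, 324 and 49.7 CPM with saline and 685, 831 and 914 CPM with O304. Each O304 library was above each saline one. The log2 fold change was -0.96 (adjusted p = 0.381) against 18 mo and 1.27 (adjusted p = 0.299) for O304. The lysosomal sialic acid exporter Slc17a5 (sialin) varied over a narrow range, at 86.1, 104 and 86.2, then 87.3, 79.6 and 54.9, then 103, 94.8 and 106 CPM (log2 fold change -0.32 ± 0.18, and 0.45 ± 0.18, adjusted p = 0.280 and 0.208). For O304 against saline without 21 mo replicate 1, Slc17a1 came to 1.46 (adjusted p = 0.0255), Slc17a3 to 2.11 (adjusted p = 0.0484) and Slc17a5 to 0.58 (adjusted p = 0.0446).

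The sodium-coupled carriers of the Slc13 family supply and recover dicarboxylates, citrate and sulfate. Slc13a3 (NaDC3), the basolateral carrier that keeps up the dicarboxylate pool for organic anion exchange, was at 761, 1289 and 1028 CPM at 18 mo, 827, 579 and 123 CPM at 21 mo and 861, 875 and 876 CPM with O304. The saline libraries were below all O304 libraries and overlapped the 18 mo group by 1 library (log2 fold change -1.01 ± 0.55, adjusted p = 0.271, and 0.77 ± 0.55, adjusted p = 0.415). Slc13a2 (NaDC1), which takes citrate back from the urine, was at 39.0, 40.0 and 33.5 CPM, 38.4, 23.3 and 12.7 CPM and 58.6, 47.9 and 42.9 CPM in the 3 groups. With O304 it was above both other groups in every library, by 1.01 ± 0.33 on the log2 scale over saline (adjusted p = 0.182) and by 0.41 ± 0.33 over 18 mo (adjusted p = 0.734). When 21 mo replicate 1 was left out, the difference of saline from 18 mo was -1.04 (adjusted p = 0.0219) and that of O304 from saline 1.46 (adjusted p = 0.0103).

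Slc13a1 (NaS1), the apical sulfate carrier, did not follow them, at 283, 435 and 357 CPM at 18 mo, 722, 651 and 208 CPM at 21 mo and 475, 435 and 518 CPM with O304. Both of the higher saline libraries exceeded every other library and the third was below all of them, so the group straddled the others (log2 fold change 0.56 ± 0.40, and -0.15 ± 0.40, adjusted p = 0.397 and 0.843). The citrate carrier Slc13a5 was scarce, at 2.11, 1.11 and 2.26 CPM, then 0.870, 0.455 and 0.0916 CPM, of which the lowest was 2 counts, then 0.930, 1.67 and 1.72 CPM. Saline was below both other groups in every library (log2 fold change -1.99 ± 0.66, adjusted p = 0.113, and 1.64 ± 0.67, adjusted p = 0.219). Leaving out 21 mo replicate 1 gave -2.74 (adjusted p = 0.0247) and 2.41 (adjusted p = 0.0406).

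Of the families with more than 4 tested genes, only Slc10 had a higher median at 21 mo than at 18 mo, at 0.46 on the log2 scale over 6 genes. It held genes of both directions. Slc10a2, the apical sodium and bile acid cotransporter, was at 45.5, 45.2 and 26.9 CPM at 18 mo, 138, 70.9 and 19.8 CPM at 21 mo and 112, 78.7 and 45.0 CPM with O304. Replicate 1 was the highest and replicate 3 the lowest in every group, and the spread exceeded the differences (log2 fold change 0.95 ± 0.60, and 0.05 ± 0.59). Slc10a1, the bile acid uptake carrier best known in hepatocytes, was at the low level of 1.67, 1.54 and 2.49 CPM at 18 mo, 0.401, 0.455 and 0.366 CPM at 21 mo, which was 6, 8 and 8 counts, and 0.698, 0.834 and 0.764 CPM with O304. The 3 groups were fully separated, with O304 between the others. The log2 fold changes were -2.21 ± 0.36 (adjusted p = 0.0626) for 21 mo and -1.31 ± 0.34 (adjusted p = 0.337) for 21 mo/O304 against 18 mo. For O304 against saline it was 0.90 ± 0.37 (adjusted p = 0.220). Leaving out 21 mo replicate 1, the first was -2.18 (adjusted p = 0.0124). Slc10a3 was higher in every 21 mo library (9.16, 9.43 and 10.7 CPM) than in any 18 mo library (6.75, 7.02 and 6.34 CPM), by 0.54 ± 0.18 on the log2 scale (adjusted p = 0.110).

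Of the peptide carriers, Slc15a2 (PEPT2), which recovers filtered di- and tripeptides, was at 99.2, 76.5 and 66.5 CPM at 18 mo, 106, 75.2 and 34.4 CPM at 21 mo and 79.1, 58.5 and 74.1 CPM with O304, with overlap throughout. Slc15a3, a lysosomal carrier of histidine and peptides found in myeloid cells, was at 5.45, 3.94 and 7.86 CPM, 6.76, 7.96 and 19.2 CPM and 5.0, 5.84 and 4.90 CPM, highest in the library with the highest macrophage markers. The log2 fold change was 0.98 ± 0.41 (adjusted p = 0.178) against 18 mo and -1.11 ± 0.41 (adjusted p = 0.200) for O304. These became 1.26 (adjusted p = 0.0471) and -1.38 (adjusted p = 0.0383) without 21 mo replicate 1. Its relative Slc15a4 was at 14.5, 17.0 and 17.4, then 22.7, 21.3 and 16.6, then 17.0, 17.6 and 22.6 CPM.

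Among 13 tested Slc16 genes, 8 were lower and 5 higher at 21 mo. Slc16a11 and Slc16a13, neighbours on chromosome 11 (70212752 to 70216417 and 70216789 to 70221064), were both lower with saline. Slc16a11 was at 29.2, 29.3 and 27.8 CPM at 18 mo, 17.5, 16.9 and 10.1 CPM at 21 mo and 22.7, 22.3 and 23.8 CPM with O304, which placed O304 between fully separated groups. Its log2 fold changes were -0.96 ± 0.19 (adjusted p = 0.0626) for 21 mo, 0.64 ± 0.19 (adjusted p = 0.176) for O304 against saline and -0.32 ± 0.19 (adjusted p = 0.628) for O304 against 18 mo. It passed against 18 mo without 21 mo replicate 1, at -1.08 (adjusted p = 0.00994), and also without 21 mo replicate 3, at -0.76 (adjusted p = 0.0436). For O304 against saline it passed without 21 mo replicate 1, at 0.76 (adjusted p = 0.0308). Slc16a13 was at 80.8, 98.0 and 85.9, then 72.9, 57.3 and 27.3, then 97.2, 99.3 and 77.8 CPM in the 3 groups, with saline below both others. On the log2 scale it differed by -0.75 (adjusted p = 0.160) and 0.80 (adjusted p = 0.201). The differences became -1.05 (adjusted p = 0.0306) and 1.11 (adjusted p = 0.0282) without 21 mo replicate 1.

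The lactate exporter Slc16a3 (MCT4), typical of glycolytic cells, was at 2.42, 1.85 and 1.81 CPM at 18 mo, 3.68, 2.50 and 6.83 CPM at 21 mo and 1.34, 1.97 and 1.40 CPM with O304. The saline libraries were above all others, by 1.10 ± 0.40 on the log2 scale (adjusted p = 0.131) against 18 mo. O304 differed from saline by -1.47 ± 0.40 (adjusted p = 0.175, or -1.58 with adjusted p = 0.0369 without 21 mo replicate 1). The lactate and pyruvate carriers Slc16a1 (MCT1) and Slc16a7 (MCT2) overlapped in every comparison. Slc16a1 ranged from 23.4 to 60.7 CPM over the 9 libraries. Slc16a7 was at 216, 131 and 111 CPM, 203, 122 and 88.2 CPM and 237, 127 and 111 CPM, with replicate 1 highest in each group. The creatine carrier Slc16a12 ranged from 86.6 to 189 CPM and passed for O304 against saline only without 21 mo replicate 1 among the libraries left out, at 0.70 (adjusted p = 0.0401). The carnitine carrier Slc16a9 was at 130.4, 139 and 133, then 223, 103 and 23.0, then 218, 168 and 116 CPM.

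**Figure D3:**
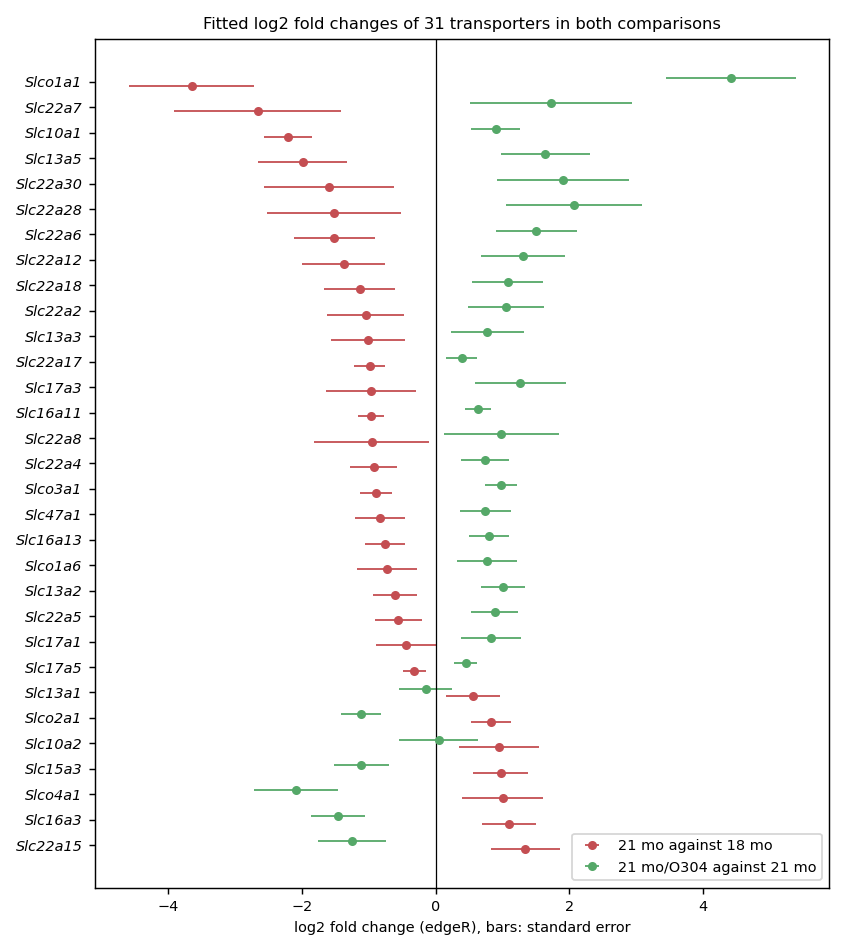
Fitted log2 fold change of 31 transporters for 21 mo against 18 mo (red) and for 21 mo/O304 against 21 mo (green), with bars of 1 standard error from edgeR on all 9 libraries. Points range from -3.65 to 1.34 in the first comparison and from -2.09 to 4.42 in the second, and none passed an adjusted p of 0.05. Both use the same 3 saline libraries.

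Treated 21 mo kidneys were also set against 18 mo kidneys. The median log2 fold change was 0.09 over the 64 transporters (0.00 over all genes), with 43 higher (50.4% of all genes) and 21 lower (49.6%). In edgeR 0 of 64 passed (0% of all genes), and DESeq2 and limma voom with quality weights also called 0. The shared estimate of spread means that the saline libraries enter the SE and p-values of this comparison too. With edgeR on only the 6 libraries compared, 0 transporters and 22 of all genes (0.144%) passed. An unadjusted p under 0.05 was found for 2, both lower (Slc10a1 and Slc22a17), against a background of 9.66%, 4.33% higher and 5.33% lower. The groups did not overlap for 9, against 26.5% of all genes, 13.2% higher and 13.3% lower. Of these, 6 were higher (Slc10a3, Slc13a1, Slc13a2, Slc16a4, Slc22a29 and Slc22a5) and 3 lower (Slc10a1, Slc16a11 and Slc22a17). Slco1a1 was among those that overlapped, at 0.77 ± 0.85 (adjusted p = 0.820).

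Since proximal tubule markers were low in the same libraries as most transporters, each level was also taken relative to the mean log2 CPM of the 14 markers in the same library, a measure added after the data were seen. On this scale 9 of the 64 transporters had every 21 mo library below every 18 mo library, against 0.773% of all genes. Another 9 of the 64 had every one above, a share near the 13.4% of all genes. The markers' own mean was at 0.20, -0.90 and -2.77 in the 21 mo libraries, relative to 18 mo on the log2 scale. Subtracting it moves all genes of a library alike, up in replicates 2 and 3. The shares of all genes given here are thus shaped by the scale and are not shares by chance. The lower ones were Slc22a7, Slco1a1, Slc22a28, Slc22a30, Slc22a22, Slc22a6, Slc22a12, Slc22a18 and Slc22a2, in order of the difference. Slco1a1 was at -2.99, -2.37 and -4.39 in the saline libraries, with 18 mo set to 0, a difference of -3.25. Slc22a6 was at -0.80, -0.67 and -0.82, so its 3 saline libraries, which differed widely in CPM, came together on this scale, and Slc22a2 did so at -0.32, -0.31 and -0.39. By contrast Slc22a28, Slc22a30 and Slc22a22 stood at -4.04, -3.94 and -4.79 in 21 mo replicate 3 and closer to 0 in replicates 1 and 2. Among the higher ones, Slc10a2 was at 1.65, 1.80 and 1.83 and Slc13a1 at 0.83, 1.79 and 2.01. In CPM they stood at 1.85, 0.89 and -0.94 (Slc10a2) and 1.03, 0.88 and -0.76 (Slc13a1) on the log2 scale relative to 18 mo, so replicate 3 changed sides on the marker-relative scale and replicate 1 came closer to 18 mo. Compared with saline, O304 was higher in every library for 8 of the 64 (Slc17a3, Slc22a12, Slc22a2, Slc22a22, Slc22a28, Slc22a30, Slc22a6 and Slco1a1, against 0.711% of all genes). It was lower in every library for 7 of the 64, a share near the 8.82% of all genes.

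**Figure D4:**
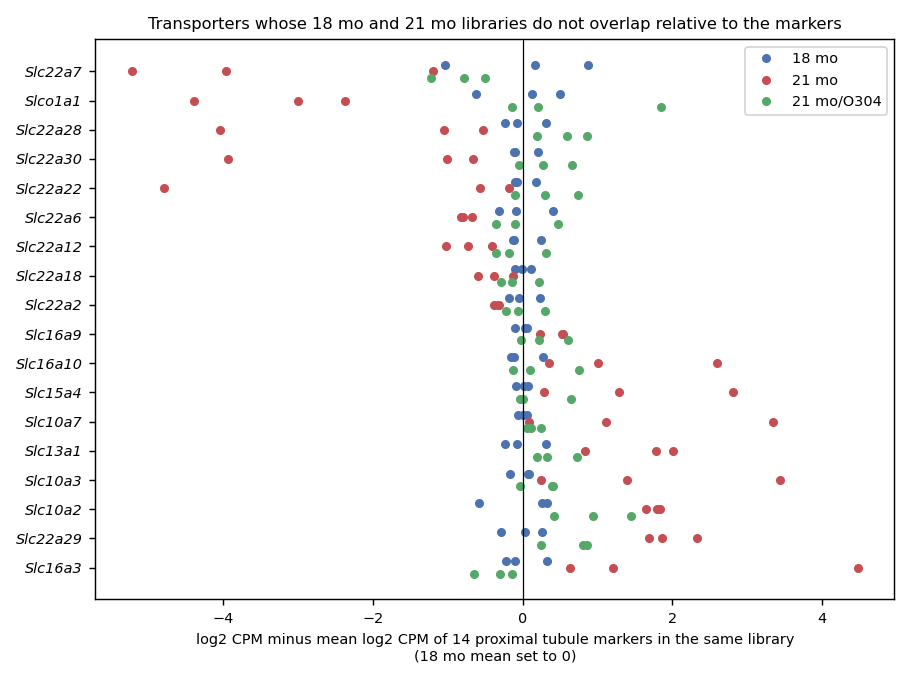
Log2 CPM of 18 transporters minus the mean log2 CPM of 14 proximal tubule markers in the same library, with the 18 mo mean set to 0 and 1 point per library. In the upper 9 rows the saline points lie left of every 18 mo point, and in the lower 9 rows right of them. The lower 9 are a share of the 64 tested transporters near the 13.4% of all genes. The saline points of Slc22a6 fall between -0.82 and -0.67 and those of Slco1a1 between -4.39 and -2.37.

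Some transporters had the same replicate number at the top or bottom of all 3 groups. Replicate 1 was the highest of its group in all 3 groups for 7 of the 64 (Slc10a2, Slc15a2, Slc16a7, Slc22a13, Slc22a19, Slc22a26 and Slco4c1), against 5.48% of all genes. Replicate 3 was the lowest in all 3 groups for 6 (Slc10a2, Slc13a2, Slc16a7, Slc22a19, Slc22a26 and Slc22a7), against 5.01%. The other positions were below the share of all genes. Replicate 1 was the lowest in all 3 groups for 1 transporter (4.47% of all genes) and replicate 3 the highest for 2 (5.64%). Replicate 2 was the highest for 0 (2.36%) and the lowest for 0 (2.33%). Slco4c1 in the O304 group was at 70.2 CPM in replicate 1 and 1.46 CPM in replicate 3, and Slc22a13 at 90.8 and 7.07 CPM. The sources used here give the replicate numbers no shared litter, day or batch.

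The partners and regulators of these carriers were taken as a list of 33 genes (efflux pumps of the ABC family, the bile acid exporter Slc51a and Slc51b, chaperones, scaffolds, sodium pump subunits and transcription factors), of which 32 were tested. At 21 mo 8 were higher and 24 lower than at 18 mo (median -0.28 on the log2 scale), where 52.7% of all genes were higher and 47.3% lower. With O304 against saline 22 were higher and 10 lower (median 0.32), where 48.2% of all genes were higher and 51.8% lower. In each comparison 0 passed. The 21 mo and 18 mo groups did not overlap for 17 of the 32, 6 higher and 11 lower, against 13.5% and 15.3% of all genes. For O304 against saline 3 were higher and 4 lower without overlap, against 10.8% and 10.5% of all genes, and 25 overlapped.

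Of the 10 efflux pumps in the list, Abcc3, Abcc4, Abcc5 and Abcb1b were higher in every 21 mo library than in any 18 mo library. The share of all genes that did so was 13.5%. Abcc3 was at 4.21, 3.02 and 3.45 CPM at 18 mo, 17.6, 18.5 and 47.7 CPM at 21 mo and 6.28, 4.77 and 2.42 CPM with O304 (log2 fold change 2.97 ± 0.48, adjusted p = 0.0626, and -2.64 ± 0.47, adjusted p = 0.175). It passed in both without 21 mo replicate 1, at 3.23 (adjusted p = 0.00487) and -2.88 (adjusted p = 0.00788), and against 18 mo also without 21 mo replicate 3, at 2.32 (adjusted p = 0.0436). Abcc4, an apical pump for organic anions, was at 35.4, 55.4 and 55.8 CPM, 228, 148 and 119.7 CPM and 125, 87.6 and 50.2 CPM (log2 fold change 1.76 ± 0.36, adjusted p = 0.0626, or 1.47 with adjusted p = 0.0197 without 21 mo replicate 1). Abcb1b, a P-glycoprotein gene, was at 13.4, 9.92 and 12.3, then 67.0, 29.4 and 16.3, then 35.6, 18.4 and 11.7 CPM. Abcc5 was 0.28 higher on the log2 scale. A pair of pumps was instead lower in every 21 mo library than in any 18 mo library, as were 15.3% of all genes. Abcc6 was at 15.4, 16.4 and 15.5 CPM at 18 mo and 14.2, 7.39 and 3.85 CPM at 21 mo, and Abcc10 at 17.3, 15.7 and 15.9 CPM and 9.50, 12.2 and 10.4 CPM (-0.61 on the log2 scale, adjusted p = 0.0751). The other 4 pumps overlapped. The transcription factor Hnf4a overlapped, at 851, 924 and 1068, then 1045, 654 and 278, then 976, 849 and 764 CPM. The scaffold Pdzk1, which binds apical carriers, was at 459.9, 553 and 484, then 452, 238 and 76.5, then 425.5, 475 and 443 CPM. Its saline libraries were below the 18 mo libraries, narrowly for replicate 1, and overlapped the O304 libraries. The log2 fold changes were -0.97 ± 0.49 (edgeR adjusted p = 0.246) and 0.81 ± 0.49 (adjusted p = 0.350).

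The 17 transporters too scarce to test were Slc10a4, Slc15a5, Slc16a8, Slc17a2, Slc17a6, Slc17a7, Slc17a8, Slc22a16, Slc22a20, Slc22a27, Slc47a2, Slco1a5, Slco1b2, Slco1c1, Slco5a1, Slco6c1 and Slco6d1. Of these, 14 had at most 13 counts in any library. The others were Slc17a8, with up to 17 counts in an O304 library, Slc22a27, with 20 counts in 21 mo replicate 1, and Slco5a1, with 25 counts in 21 mo replicate 3 and at most 4 in any other.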

How the data were processed

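Kidney RNA of 9 libraries, 3 per group, was sequenced after Trizol extraction with a NEBNext Ultra library kit. The submitters' processing notes name HISAT2 2.0.5, featureCounts 1.5.0-p3 and DESeq2 1.20.0 and the GRCm38/mm10 genome. The authors deposited 1 table with raw read counts and FPKM values per gene and library, which the report uses, and columns of their own pairwise comparisons (fold changes and p-values), which it does not. Strand and multi-mapping settings are not given in the sources used here.

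Deposited counts were fitted with edgeR 4.0.16 in R 4.3.3 (TMM factors, quasi-likelihood test, 3 group means over all 9 libraries, 6 residual degrees of freedom) after a filter on low counts (filterByExpr, minimum count 10 and minimum total 15), which kept 15902 of 54532 genes. p-values were adjusted by Benjamini-Hochberg over all 15902, with a threshold of 0.05. CPM values use the TMM-scaled totals, and deposited FPKM served only for levels between genes and as an alternative unit. With 15636378 to 18396725 counts per library and 3 libraries a group, counting error is small for all but the scarcest genes, and the spread between libraries sets the precision. The model was also run on simulated counts to check the code. Those counts held no library set apart from its group, so they do not measure how reliable the results here are. Alternatives were DESeq2 1.42.0, other scalings and filters, limma 3.58.1 (voom with quality weights, or log2 FPKM), a replicate block, the 6 libraries compared, and each library left out.

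The members, the lists of markers and partners and the rules were chosen with earlier results of these data known. Named were any member past the threshold, the 10 with the smallest p in each comparison, the 10 highest by FPKM and 31 carriers best known in kidney. Slc22a13, Slc22a15, Slc22a19, Slc22a22, Slc22a26, Slc22a28, Slc22a30 and the partners given with values were named after their values were seen, as were any others outside these rules. Some genes that fall under these rules are not reported here.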

Additional observations from a re-analysis of the deposited data

How the results depend on the processing

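For 21 mo against 18 mo, the count of transporters past an adjusted p of 0.05 was 0 in the reported fit. It was 6 with DESeq2, 4 without a filter on low counts, 40 with limma voom and quality weights, and 16 at an unadjusted p under 0.05, a criterion added after the data were seen. Leaving out 1 library gave counts from 0 to 22, and the median log2 fold change of the tested members ranged from -1.06 to -0.19. For O304 against saline at 21 mo, the count was 0, and it was 5 with DESeq2, 37 with limma voom and quality weights and 16 at an unadjusted p under 0.05. It ran from 0 to 29 with 1 library left out, with medians from 0.26 to 1.16. The highest counts and the medians farthest from 0 came without 21 mo replicate 1, and the medians nearest to 0 without 21 mo replicate 3. For 21 mo/O304 against 18 mo the count was 0 under every tool and with every library left out, and 2 at an unadjusted p under 0.05. The cause of these differences was not tested. Voom weighted the 21 mo libraries at 0.223, 9.11 and 0.132, so its calls lean on replicate 2 of that group. Without a filter the count was 576 of all genes for 21 mo against 18 mo and 17 for O304 against saline, where the reported fit gave 3 and 0, DESeq2 gave 2059, 947 and, for 21 mo/O304 against 18 mo, 126, and voom gave 8409, 6528 and 415.

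Of 1514 single-gene values recomputed for 81 results, 1377 kept their direction and side of the threshold, 131 kept their direction and passed it, and 6 changed sign, all within 1 SE of 0 in the reported fit. Slc13a1 for O304 against saline, -0.15 as reported, was 0.0437 on log2(FPKM + 1), 0.0485 on log2(FPKM + 0.1), and between -0.52 and 0.14 with 1 library left out. Slc10a2, 0.05 as reported, ran from -0.40 to 0.79 with 1 library left out.

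With the replicate number as a block, 0 transporters passed in each of the 3 comparisons. The numbers share no stated litter or day, and correlations of same-numbered libraries' deviations ran from -0.13 to 0.175 over all genes and from 0.0127 to 0.682 over the transporters. Those of differently numbered libraries ran from -0.263 to 0.202 over all genes and from -0.651 to 0.322 over the transporters. Not every same-numbered pair was over 0.1 and not every library correlated best with its own number on either measure, so the numbers were not taken as pairs. Over the transporters every same-numbered correlation was positive, and whether the numbers mark a shared factor was not tested.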
